A study of Homo sapiens with 12 samples.

Results

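The BCL2 family sets the threshold of the mitochondrial route of apoptosis. BAX and BAK1 are its effectors and form pores in the outer mitochondrial membrane, the BH3-only members BBC3 (PUMA), PMAIP1 (NOXA), BID, BAD and BCL2L11 (BIM) activate them or neutralize their guardians, and BCL2L1 (BCL-XL, with the BCL-XS splice form), MCL1 and BCL2 are those guardians. BAX, BBC3 and PMAIP1 are textbook targets of p53, the transcription factor that MDM2 binds, blocks and marks for degradation. RG7112 is a small molecule that keeps MDM2 from holding p53, and the levels of these transcripts show how the family stood in lung adenocarcinoma cells with and without it.

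The 10 genes were BAX, BBC3, PMAIP1, BAK1, BID, BAD, BCL2L11, BCL2L1, MCL1 and BCL2, taken by Ensembl identifier from the 20595 genes of the deposited table. They were chosen by function, though with earlier results of these data known. They fell into 3 p53-induced genes, 4 other pro-apoptotic genes and 3 anti-apoptotic genes. RNA came from A549 and H1792, both of them human lung adenocarcinoma lines with amplified MDM2. By the series' design text, p53 is WT in A549 and mutant in H1792. Each line was kept for 48 h with DMSO, the solvent control, or with 1 μM of RG7112, which gave 4 groups of 3 samples. Each line is 1 established culture, so a difference between A549 and H1792 cannot be told apart from any other difference between these lines. The labels do not say whether replicates were separate cultures, and the p-values measure only the spread between these samples, which may be technical. Total RNA in bulk also cannot tell a change per cell from a change in the cells present.

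The libraries held 2011916 to 6218825 estimated counts. Levels are given as CPM, the usual depth-scaled count, after TMM scaling, and 3 counts stood for 0.464 to 1.43 CPM, a floor that covers counting error only. Responses are log2 fold changes of RG7112 over DMSO from edgeR's quasi-likelihood test, each with its standard error (SE), and a gene was called when its Benjamini-Hochberg adjusted p was under 0.05. A called gene with an absolute log2 fold change over 1 was a DEG. Fold changes followed the GC content of the transcripts, with Spearman's rho of 0.26 across 9941 genes in A549 and -0.47 across 9165 genes in H1792, so members were also tested after a GC correction. Replicate 3 of both A549 groups stood apart from the other replicates on the second principal component of that line, at -47.2 and -39.0 against 9.06 to 38.6. The 6 epithelial markers (KRT7, KRT8, KRT18, KRT19, EPCAM and CDH1) summed to 14442 to 24010 CPM in A549 and 1067 to 2180 CPM in H1792. EPCAM had at most 9 counts in any A549 library and 35 in any H1792 library, and CDH1 at most 131 and 4. The 3 lung epithelial markers (NKX2-1, SFTPB and NAPSA) summed to 5.69 CPM at most. Of 4 fibroblast markers, 2 were above the floor in H1792, with a sum of 194 to 298 CPM, against at most 8.17 CPM in A549. Leukocyte and endothelial markers summed to 2.38 CPM at most.

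In A549, RG7112 raised BBC3 and BCL2L1, a pro-apoptotic and an anti-apoptotic gene, and no other tested family member passed the test. In H1792 neither of these rose, and BAX was the only member called, at a lower level with the drug. That call was lost after the GC correction (log2 -0.09, adjusted p = 0.444), which left 0 members called in H1792 by edgeR. Of all 9914 genes tested there, the corrected fit called 1327 higher and 1292 lower. BAX and BBC3 already stood higher in A549 than in H1792 without the drug, and BAX was the most abundant member per transcript length in every group.

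**Figure D1:**
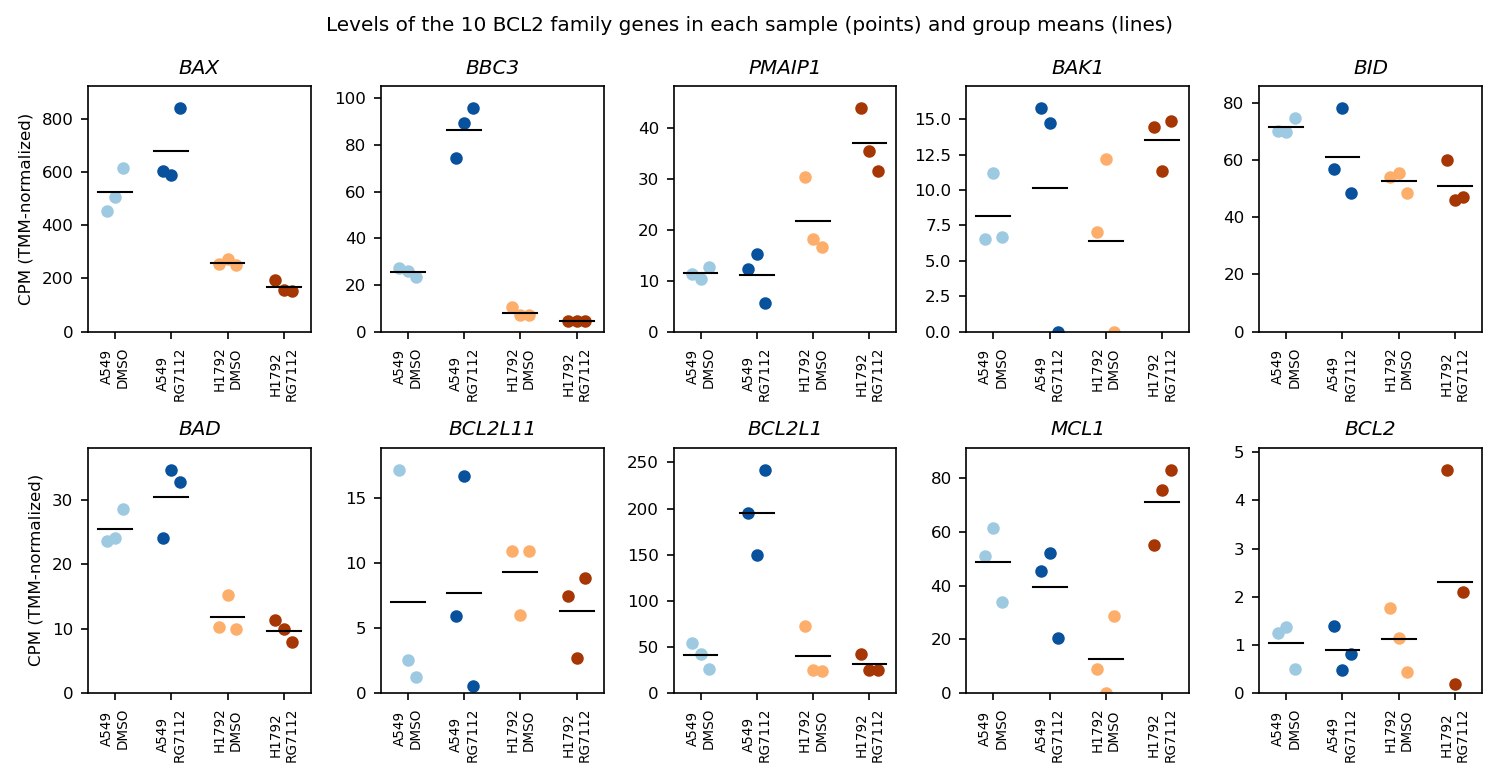
CPM (TMM-normalized, linear axis from 0, a separate scale for each gene) of the 10 genes in each of the 12 samples, with points for samples and lines for the means of 3. BBC3 and BCL2L1 lie higher in all 3 A549 samples with RG7112 than in any A549 sample with DMSO, and BAX lies higher in A549 than in H1792 throughout.

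Of the 9 members tested in A549, 2 were called higher, where 4.35% of the 10739 tested genes were. Both were also DEGs, a class that held 3.18% of all tested genes in the upward direction. None of the 9 was called lower by edgeR, and none was lower at an unadjusted p under 0.05 or with DESeq2 or limma. Over all genes, 4.03% were called lower and 3.01% were lower DEGs. The members' median log2 fold change was 0.25, beside -0.01 for all tested genes.

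In H1792, 1 of 9 members was called lower, where 16.5% of the 9914 tested genes were, a share close to that background. It was not a DEG, and lower DEGs made up 4.34% of the tested genes. No member was called higher by edgeR, against 17.7% of all genes (10.3% as DEGs), although 2 were higher at an unadjusted p under 0.05 and 1 each with DESeq2 and limma. The members' median was -0.21, beside 0.01 for all genes. When libraries were scaled by their totals alone, the split over all genes in H1792 moved from 1752 higher and 1632 lower to 2637 and 849, with a median of 0.27.

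**Figure D2:**
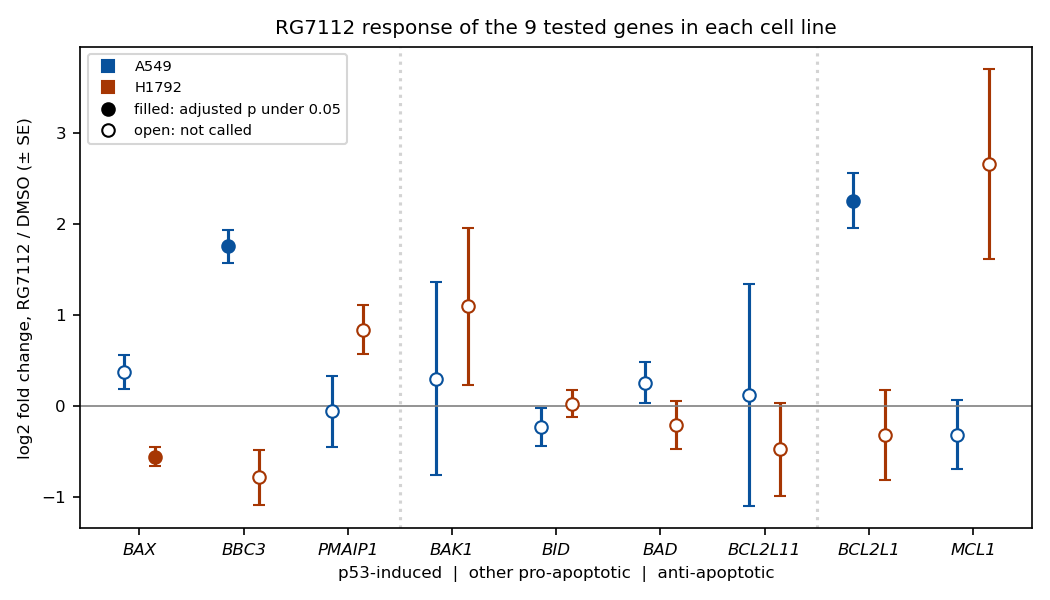
Log2 fold change of RG7112 over DMSO (y axis, ± SE) of the 9 tested genes in A549 (blue) and H1792 (brown), with filled points for an adjusted p under 0.05. The filled points are BBC3 (1.76) and BCL2L1 (2.26) in A549 and BAX (-0.56) in H1792, and the bars are widest for BAK1 and BCL2L11 in A549 and for MCL1 in H1792.

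BBC3 encodes PUMA, a BH3-only protein that binds every anti-apoptotic family member. The gene lies on chromosome 19 (47220822 to 47232766, minus strand, GRCh38) and its exons overlap only the microRNA genes MIR3190 and MIR3191. In A549 it stood at 27.4, 25.9 and 23.4 CPM with DMSO and at 74.4, 89.4 and 95.7 CPM with RG7112. The groups did not overlap, and the rise was 3.38-fold (log2 1.76, SE 0.18, adjusted p = 0.00221 by edgeR). Leaving out any single A549 library kept the call, with values between 1.68 and 1.85. After the GC correction the log2 fold change was 1.48 (adjusted p = 0.00471).

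In H1792 the same transcript was scarce, at 10.5, 6.91 and 6.96 CPM with DMSO and 4.38, 4.61 and 4.41 CPM with RG7112, from 16 to 30 counts a library. Every RG7112 sample lay below every DMSO sample, yet the difference did not pass the test (log2 -0.79, SE 0.31, adjusted p = 0.0903). It was called when all 12 samples shared one fit (-0.85, adjusted p = 0.0202), and it shrank to -0.15 after the GC correction (adjusted p = 0.772). The responses of the 2 lines differed by 2.61 (SE 0.29, adjusted p = 0.000259), and by 1.68 after the GC correction (adjusted p = 0.00831).

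BAX, the pore-forming effector, lies on chromosome 19 (48954815 to 48961798, plus strand). A549 had 452, 505 and 613 CPM with DMSO and 603, 589 and 839 CPM with RG7112. The groups overlapped, and the fold change of 1.29 (log2 0.37, SE 0.19) did not pass the test (adjusted p = 0.286). Samples numbered 3 were the highest of both groups. The log2 fold change was 0.19 without the RG7112 replicate 3 and 0.50 without the DMSO replicate 3. Without both it was 0.32 (adjusted p = 0.0652).

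H1792 held less BAX, with 254, 271 and 252 CPM in DMSO and 196, 155 and 151 CPM in RG7112. All treated samples lay below all controls, and BAX fell by 0.56 on the log2 scale (SE 0.11, adjusted p = 0.01004). This call was lost after the GC correction, which left -0.09 (adjusted p = 0.444). The exons of BAX are 60.4% GC, against a median of 49.4% for the genes tested in H1792. With scaling by library totals alone the value was -0.30 (adjusted p = 0.0398). The response differed between the lines by 1.00 (SE 0.23, adjusted p = 0.0130), and this too was lost after the GC correction (0.29, adjusted p = 0.147).

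PMAIP1 encodes NOXA, a BH3-only protein that chiefly binds MCL1. The gene lies on chromosome 18 (59899948 to 59904306, plus strand). Its RefSeq promoter window, 250 bases before to 50 after the start, was the only one among the 9 family members with such an entry to hold the p53 consensus site, 2 adjoining decamers with at most 3 mismatches and both C and G of each core kept. MDM2, itself a p53 target, also held one, in a window at its internal start, and 1.37% of 27305 genes had a match in any of their windows. A match describes letters only, and the windows of BAX, BBC3 and CDKN1A held none. Both sites are shown with their flanks (GRCh38.p14, plus strand, chr18:59899791-59899850 and chr12:68808903-68808962), as the matches found among the 10 members, CDKN1A and MDM2. Capitals mark the match, with 3 mismatches in PMAIP1 and 2 in MDM2.
PMAIP1: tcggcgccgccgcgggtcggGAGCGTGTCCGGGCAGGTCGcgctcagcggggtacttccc
MDM2: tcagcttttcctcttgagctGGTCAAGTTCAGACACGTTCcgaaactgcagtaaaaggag

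PMAIP1 showed no called response in A549. Its levels were 11.2, 10.4 and 12.7 CPM with DMSO and 12.2, 15.2 and 5.69 CPM with RG7112, so the treated samples lay on both sides of the controls (log2 -0.06, SE 0.39, adjusted p = 0.947). Without RG7112 replicate 3, the lowest sample, the value was 0.26 (adjusted p = 0.636). MDM2, which RG7112 targets as a protein, went from 3.11, 9.53 and 12.9 CPM to 72.7, 58.5 and 75.9 CPM in A549. That was a rise of 2.99 on the log2 scale (SE 0.45, adjusted p = 0.0102), and without DMSO replicate 2 the adjusted p was 0.0534.

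PMAIP1 was more abundant in H1792, at 30.2, 18.2 and 16.5 CPM with DMSO and 43.8, 35.5 and 31.6 CPM with RG7112. All treated samples lay above all controls, by 0.84 on the log2 scale (SE 0.27, adjusted p = 0.0540), just past the threshold. DESeq2 called it (adjusted p = 0.0329), as did limma-trend (0.0423), and leaving out DMSO replicate 1 brought it to 1.16 (adjusted p = 0.0154). After the GC correction it was 0.44 (adjusted p = 0.264). PMAIP1 has the lowest GC content of the 10 genes, 43.6%. The difference between the lines, -0.83 (SE 0.48), was not called (adjusted p = 0.239).

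Of all tested genes, edgeR called 4.35% higher and 4.03% lower in A549, and 17.7% and 16.5% in H1792. The 4 other pro-apoptotic genes showed no called response in either line, with edgeR, DESeq2, limma or at an unadjusted p under 0.05. BID, which caspase-8 cleaves to link death receptors to mitochondria, was the steadiest of them. It ranged from 48.5 to 78.0 CPM in A549 and from 46.0 to 60.0 CPM in H1792, with log2 fold changes of -0.23 (SE 0.21) and 0.03 (SE 0.15). BAD, a BH3-only protein that survival kinases hold inactive by phosphorylation, went from 23.7, 24.2 and 28.6 to 24.1, 34.7 and 32.8 CPM in A549 and from 10.2, 15.2 and 10.0 to 11.3, 9.94 and 7.90 CPM in H1792. Its log2 fold changes of 0.25 (SE 0.23) and -0.21 (SE 0.27) both changed sign after the GC correction, and that in H1792 also with scaling by library totals. Of the exons of BAD, 404 bases overlap GPR137 on the other strand, and whether counting used strand is not given in the sources used here.

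BAK1 and BCL2L11 were measured poorly. BAK1, the effector that partners BAX, had 0 counts in A549 RG7112 replicate 3, beside 15.8 and 14.7 CPM in the other replicates, and 0 again in H1792 DMSO replicate 3, beside 7.03 and 12.2 CPM. A count of 0 allows up to 0.813 CPM and 1.31 CPM in these libraries. Of the genes with at least 10 CPM in both other replicates, 0.27% and 0.3% were at 0 in these same libraries, so an isolated 0 was rare at that level. These were the highest such shares of the 12 libraries. In the H1792 controls BAK1 was partly under 10 CPM, so the 0.3% does not cover its level there. The log2 fold changes were 0.30 (SE 1.06) and 1.0997 (SE 0.86). BCL2L11, the BIM gene, spread from 0.542 to 17.1 CPM in A549, with 5 counts or fewer in both samples numbered 3, and from 2.66 to 10.9 CPM in H1792. Its log2 fold changes were 0.12 (SE 1.22) and -0.48 (SE 0.51), both within 1 SE of 0, and a change of moderate size was not detectable at this spread.

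BCL2L1 showed the largest response of any tested member in A549. It lies on chromosome 20 (31664452 to 31723989, minus strand), and its gene-level count pools the BCL-XL and BCL-XS splice forms, which oppose each other. A549 had 54.5, 42.0 and 26.6 CPM with DMSO and 196, 149 and 242 CPM with RG7112. Every treated sample exceeded every control, a rise of 4.78-fold (log2 2.26, SE 0.30, adjusted p = 0.00643). The call held without any single A549 library, with values between 2.03 and 2.498, and after the GC correction (2.10, adjusted p = 0.00689). Of its 3314 exonic bases, 1424 overlap the antisense gene ABALON, which was not analysed here.

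H1792 started from a like mean of BCL2L1 but a wide one, with 72.8, 24.6 and 23.5 CPM in DMSO and 42.5, 25.2 and 25.3 CPM in RG7112. Replicate 1 was the highest sample of both groups, and the groups overlapped (log2 -0.31, SE 0.49, adjusted p = 0.656). Without DMSO replicate 1 the value was 0.44 (adjusted p = 0.298). The responses of the lines differed by 2.64 (SE 0.62, adjusted p = 0.0139) and by 2.20 after the GC correction (adjusted p = 0.0356).

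MCL1, a short-lived guardian on chromosome 1 (150574551 to 150579738, minus strand), did not pass the test in either line. In A549 it stood at 51.1, 61.3 and 33.8 CPM with DMSO and 45.3, 52.3 and 20.6 CPM with RG7112, an overlap with a log2 fold change of -0.31 (SE 0.38, adjusted p = 0.680). Samples numbered 3 were the lowest of both groups. In H1792 the counts were 26, 0 and 66 with DMSO and 214, 426 and 358 with RG7112, or 9.14, 0 and 28.7 CPM against 55.1, 75.6 and 83.1 CPM.

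All treated H1792 samples thus exceeded all controls in MCL1, by 2.66 on the log2 scale, but the SE was 1.05 and the adjusted p was 0.0931. DMSO replicate 2 had the largest of the 3 control libraries and no count, and 0 counts allow up to 0.691 CPM there. Without it the value was 1.98 (adjusted p = 0.0430), and without DMSO replicate 3 it was 4.20 (adjusted p = 0.0456). After the GC correction it was 2.36 (adjusted p = 0.139). The difference between the lines was -2.90 (SE 1.21, adjusted p = 0.110), and it too was called without H1792 DMSO replicate 3 (-4.42, adjusted p = 0.0320).

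BCL2, which gave the family its name, was near the floor in both lines. Its counts were 4, 8 and 2 in A549 with DMSO, 9, 1 and 3 with RG7112, 5, 5 and 1 in H1792 with DMSO and 18, 1 and 9 with RG7112. It did not pass the filter on low counts and was not tested. A response of BCL2 was not detectable at this depth.

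**Figure D3:**
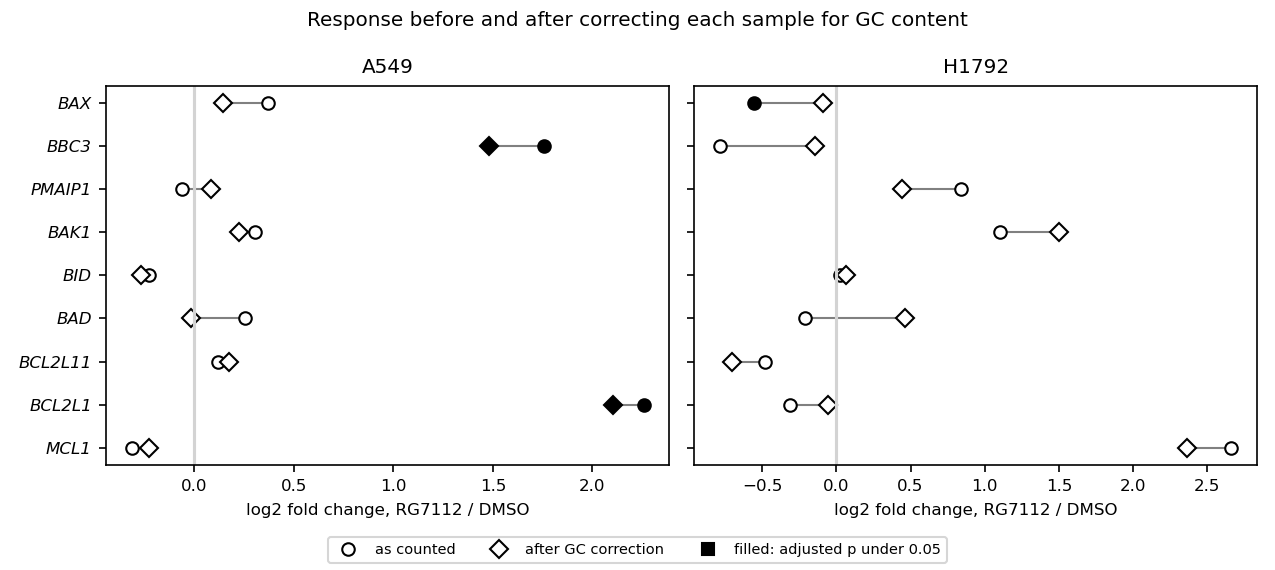
Log2 fold change of RG7112 over DMSO (x axis, a separate scale for each line) of the 9 tested genes as counted (circles) and after correcting each sample for GC content (diamonds), with filled symbols for an adjusted p under 0.05. BBC3 and BCL2L1 keep filled symbols in A549, whereas BAX in H1792 goes from -0.56 to -0.09 and no symbol stays filled in that line.

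Both lines were compared directly by testing the difference between their responses over all 12 samples. Of 9 members, 3 responded more positively in A549 than in H1792, namely BBC3, BCL2L1 and BAX, where 10.4% of the 11666 tested genes did. After the GC correction BBC3 and BCL2L1 remained. No member was called in the other direction by edgeR, DESeq2 or limma, against 11.4% of all genes, and 1 (MCL1) had an unadjusted p under 0.05. With scaling by library totals alone the split over all genes moved from 1210 higher and 1329 lower to 645 and 2157. Per class, 2 of the 3 p53-induced genes, none of the 4 other pro-apoptotic genes and 1 of the 2 tested anti-apoptotic genes were called.

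Without the drug, 3 of 9 members were higher in A549 than in H1792, where 25.6% of all tested genes were, and 1 was lower, where 22% were. The split of 2981 higher and 2565 lower genes became 3680 and 1972 with scaling by library totals alone. BBC3 was higher by 1.65 on the log2 scale (SE 0.20, adjusted p = 6.46e-05), BAD by 1.096 (SE 0.24, adjusted p = 0.00350) and BAX by 1.02 (SE 0.16, adjusted p = 0.000444). The GC correction changed none of these by more than 0.05. PMAIP1 was lower by 0.92 (SE 0.34, adjusted p = 0.0450), a call that only 3 of the 12 fits without 1 library kept. The other members did not pass, among them BCL2L1 at 0.03 (SE 0.44) and MCL1 at 2.03 (SE 0.89, adjusted p = 0.0807). The p53 target CDKN1A was higher in A549 by 2.40 (SE 0.78, adjusted p = 0.0252), a call lost without A549 DMSO replicate 1 or 2 or H1792 DMSO replicate 1 or 2 (adjusted p up to 0.0982).

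Per kilobase of exon, the order of the 10 genes was led by BAX and closed by BCL2 in all 4 groups. BAX stood at 202 ± 31.7 CPM per kb in A549 with DMSO and 262 ± 54.3 with RG7112, and at 100.1 ± 4.07 and 64.7 ± 9.44 in H1792 (SD, n = 3). BID (16.1), BAD (14.9), BCL2L1 (12.4) and MCL1 (11.1 CPM per kb) followed in A549 with DMSO. With RG7112 BCL2L1 moved from rank 4 to rank 2, at 59.0 CPM per kb, and BBC3 from rank 6 to rank 3, at 27.2 CPM per kb. In H1792 MCL1 went from rank 7 (2.89 CPM per kb) to rank 3 (16.3) and PMAIP1 from rank 4 (9.69) to rank 2 (16.5). These ranks depend on the exon length used, and adjacent genes such as PMAIP1 and MCL1 in treated H1792 differed by less than their SD.

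The balance of an effector against a guardian within one library does not depend on scaling between libraries. In A549, there were 8.27, 11.99 and 23.0 BAX counts for each BCL2L1 count with DMSO and 3.08, 3.94 and 3.47 with RG7112. The log2 ratio went from 3.72 ± 0.75 to 1.80 ± 0.18 (SD, n = 3), a change of -1.92, and the groups did not overlap. In H1792 the ratios were 3.48, 10.95 and 10.6 with DMSO and 4.59, 6.14 and 5.96 with RG7112. They overlapped, and the change in the log2 ratio of -0.42 was smaller than the SD of the controls (0.94). It was -0.97 without DMSO replicate 1 and -0.14 without DMSO replicate 2. A count ratio of 2 genes also carries their lengths and gives no ratio of molecules. It carries the GC trend of its sample too, for which these ratios were not corrected.

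**Figure D4:**
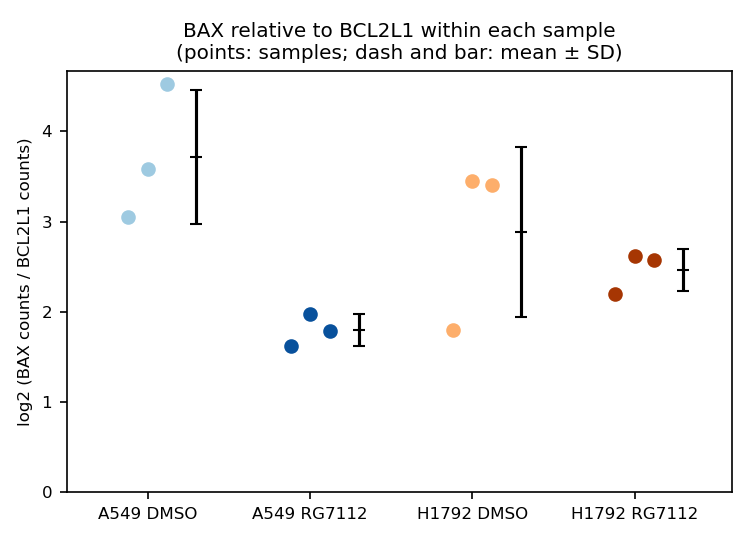
Log2 ratio of BAX to BCL2L1 counts within each sample (y axis from 0), with points for samples and the mean ± SD of 3 beside them. In A549 all 3 RG7112 samples (1.62 to 1.98) lie below all DMSO samples (3.05 to 4.52), and in H1792 the groups overlap.

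Against MCL1, A549 had 8.82, 8.23 and 18.1 BAX counts for each MCL1 count with DMSO and 13.3, 11.2 and 40.5 with RG7112, overlapping ranges. In H1792 the treated samples had 3.54, 2.05 and 1.82. The controls had 27.3 and 8.71 in replicates 1 and 3, and replicate 2 had 1177 BAX counts and no MCL1 count. The treated samples lay below all controls, and each had a lower BAX level and a higher MCL1 level, in CPM, than any control. These values were not corrected for GC content, which is 60.4% for BAX and 45.7% for MCL1. With the correction the H1792 responses were -0.09 for BAX and 2.36 for MCL1 on the log2 scale, neither of them called.

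The other p53 targets give the frame for BAX, BBC3 and PMAIP1. Of 20 tested in A549, 8 rose (14 at an unadjusted p under 0.05, 11 with DESeq2), where 4.35% of all tested genes did, with a median log2 fold change of 1.37. TP53I3, a quinone oxidoreductase, went from 352 ± 40.5 to 1500 ± 14.7 CPM (2.09, SE 0.13, adjusted p = 0.000348), and FDXR, a mitochondrial ferredoxin reductase, from 47.4 ± 17.4 to 200 ± 43.4 CPM (2.07, SE 0.29, adjusted p = 0.00775). The cyclin-dependent kinase inhibitor CDKN1A went from 44.8, 42.4 and 24.1 to 203, 189 and 940 CPM (3.58, SE 0.70, adjusted p = 0.0252). Its call was lost without any single one of the 3 DMSO libraries (adjusted p up to 0.0960), and without RG7112 replicate 3, which held the 940 CPM, the value was 2.41 (adjusted p = 0.00914). BBC3 lay above the median of this list in A549, and BAX and PMAIP1 below it.

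In H1792, 3 of 15 tested p53 targets rose and 1 fell, with a median of 0.41, where 17.7% of all tested genes rose and 16.5% fell. CCNG1, cyclin G1, rose by 1.49 (SE 0.31, adjusted p = 0.0126) and RRM2B, a ribonucleotide reductase subunit, by 2.38 (SE 0.61, adjusted p = 0.0249), whereas TP53I3 fell by 0.58 (SE 0.15, adjusted p = 0.0274). The calls of these 3 were lost after the GC correction (adjusted p = 0.0551, 0.0706 and 0.242). The remaining rise was that of ZMAT3 (1.34, SE 0.41, adjusted p = 0.0448). With the GC correction, 1 of the 15 tested p53 targets was called higher and 0 lower in H1792. The corrected fit called 1327 of all 9914 tested genes higher and 1292 lower. No GC-corrected value of ZMAT3 is given here. RRM2B had under 4 CPM on average. CDKN1A (log2 0.15, SE 0.69) and MDM2 (-0.05, SE 0.35) were not called in H1792, at up to 14.4 and 15.2 CPM.

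Fewer genes of a wider list were measurable. It held other BCL2 family genes and the BNIP genes, whose names refer to interaction with BCL2 and not to membership of its family. Of 15 listed, 14 were in the table, and 8 were tested in A549 and 7 in H1792. In A549, BCL2L12 fell from 28.6 ± 7.82 to 10.7 ± 3.49 CPM (-1.43, SE 0.34, adjusted p = 0.0480), a call lost without any single A549 library. In H1792, BNIP2 rose from 10.3 ± 1.22 to 26.5 ± 2.21 CPM (1.44, SE 0.19, adjusted p = 0.00428), as did the mitophagy receptor BNIP3L from 33.8 ± 3.93 to 52.3 ± 4.28 CPM (0.70, SE 0.14, adjusted p = 0.0104). The GC correction kept BNIP2 (0.85, adjusted p = 0.0156) and not BNIP3L (0.27, adjusted p = 0.270). BCL2L2 and BCL2A1, both anti-apoptotic, had at most 8 and 12 counts in any A549 library and none in H1792, and the effector-like BOK had none in either line.

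Downstream of the family, 1 of 17 tested genes of the mitochondrial pathway rose in A549 and 1 fell, beside 4.35% and 4.03% of all tested genes. CYCS, cytochrome c, which BAX and BAK1 pores release, fell from 185 ± 5.30 to 97.4 ± 25.3 CPM (-0.92, SE 0.21, adjusted p = 0.0402). BIRC3, an inhibitor of apoptosis protein, rose by 1.26 (SE 0.30, adjusted p = 0.0496). In each case only 1 of the 6 fits without 1 library kept the call, that without RG7112 replicate 3 for CYCS and that without DMSO replicate 3 for BIRC3.

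In H1792, 2 of 18 genes of this pathway rose and 4 fell, beside 17.7% and 16.5% of all tested genes. BIRC2, a close relative of BIRC3, rose from 11.1 ± 1.88 to 21.6 ± 0.53 CPM (1.02, SE 0.19, adjusted p = 0.00936). The outer membrane channel VDAC1 rose from 566 ± 33.3 to 708 ± 20.1 CPM (0.40, SE 0.08, adjusted p = 0.0102). XIAP, which inhibits caspases directly, fell by 2.13 (SE 0.61, adjusted p = 0.0373). The GC correction ended the calls of BIRC2 (0.46, adjusted p = 0.125) and VDAC1 (0.21, adjusted p = 0.0558) and kept that of XIAP, which 4 of the 6 fits without 1 library lost. In the corrected fit, 0 of the 18 genes were called higher and 5 lower, beside 1327 and 1292 of all 9914 tested genes.

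In A549, 8 transcription factors other than p53 that act on family genes were tested. EdgeR called 4.35% of all tested genes higher there and 4.03% lower. None of the 8 factors was called by edgeR, DESeq2 or limma or at an unadjusted p under 0.05. In H1792, 1 of 7 was called lower, where 16.5% of all tested genes were. DDIT3 (CHOP), which induces BCL2L11 and BBC3 under endoplasmic reticulum stress, fell from 145 ± 17.2 to 73.0 ± 13.7 CPM (-0.91, SE 0.17, adjusted p = 0.00874). After the GC correction the log2 fold change was -0.95. Its exons overlap those of MARS by 355 bases on the other strand.

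Of 9 tested partners that act on the stability or place of family proteins, 1 fell in A549, where 4.03% of all tested genes did. In H1792, 2 rose and 1 fell, beside 17.7% and 16.5% of all tested genes. The 14-3-3 protein YWHAE, which binds phosphorylated BAD, fell by 0.53 in A549 (SE 0.12, adjusted p = 0.0423), a call lost without any single A549 library and after the GC correction (-0.44, adjusted p = 0.0689). YWHAZ, of the same family, rose in H1792 from 207 ± 14.3 to 420 ± 48.5 CPM (1.098, SE 0.11, adjusted p = 0.00298). The GC correction left 0.68 (adjusted p = 0.00462). TMBIM6, the BAX inhibitor-1 gene, rose there by 0.34 (SE 0.07, adjusted p = 0.0121), a call that the GC correction ended (0.18, adjusted p = 0.0914). BTRC, a ubiquitin ligase subunit, fell from 17.6 ± 10.5 to 0.841 ± 0.821 CPM (-4.17, SE 0.82, adjusted p = 0.0110).

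Of the epithelial markers, 1 of 5 tested rose in A549 (KRT19, log2 1.27, adjusted p = 0.00602), where 4.35% of all tested genes did. In H1792, 4 of 5 fell, where 16.5% of all tested genes did. Among them were KRT18 (-1.04, adjusted p = 0.00437), KRT7 (-0.79, adjusted p = 0.00658) and KRT8 (-0.54, adjusted p = 0.00894). EPCAM, the other marker tested there, went the other way and was not called (1.22, SE 0.50, adjusted p = 0.102). KRT8 and KRT18 overlap each other by 525 exonic bases. In H1792 the 4 markers that fell moved in the same direction as BAX. After the GC correction KRT18 (-0.71, adjusted p = 0.00782) and KRT7 (-0.38, adjusted p = 0.0400) kept their calls. KRT8 (-0.19, adjusted p = 0.101) lost its call, as BAX did. KRT19, the remaining marker that fell (-0.59, adjusted p = 0.0371 before the correction), lost its call too. The part of these markers in the responses of BAX and of the other members was not tested.

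The genes most like each p53-induced member across the 12 samples were found by Pearson's r of log2(CPM + 1) over the 11666 tested genes. For BAX they were FTH1 (0.997), SYNGR2 (0.996) and SNORC (0.996), for BBC3 MT-CO3 (0.992), BOP1 (0.991) and TTLL3 (0.989), and for PMAIP1 CCNH (0.975), PPP1R2 (0.969) and CBFB (0.959). No gene was shared between the 3 short lists. The points fall into 4 groups of 3 and share the difference between the lines and its GC trend, so these values describe likeness of pattern only.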

How the data were processed

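RNA of 12 samples was enriched for poly-A transcripts with a directional kit and sequenced from both ends. Per the study's methods, kallisto (version 0.45.0) estimated transcript abundance on the Ensembl GRCh38 transcriptome and biomaRt annotation added it up per gene. The authors deposited expected counts (estimated counts per gene) as whole numbers, without normalization between samples. Pseudoalignment splits reads between similar transcripts and overlapping genes, and the strand setting is not given in the sources used here. Groups came from the labels. The column names carry 0.1 μM where the labels and the study's methods give 1 μM, and columns were matched by line, treatment and replicate number. One sentence of the study's text gives the p53 status of both lines the other way round.

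Genes passing filterByExpr (minimum count 10, total 15) were scaled by TMM and fitted with edgeR 4.0.16 (R 4.3.3, robust quasi-likelihood), per line for responses and over 12 samples for differences between lines. The study's methods name DESeq2, which was run as an alternative (1.42.0), as was limma 3.58.1. The other alternatives were RLE or library totals as scaling, 2 other count filters, a replicate block, a loess correction (span 0.5) of each sample for GC content, alone, with length or with the block, 1 fit over all samples, an adjusted p under 0.01, the fold threshold, a ratio pseudocount of 1 in place of 0.5, and leaving out each sample and both A549 samples numbered 3. The procedure was tested on simulated data.

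GENCODE v29 gave symbols, positions and lengths for 17982 of the 20595 identifiers. Promoter windows are RefSeq's on GRCh38.p14, and 9 of the 10 members had one. Named were the 10 members, CDKN1A and MDM2, up to 3 called genes of each list per line by smallest p, and the 3 genes most like BAX, BBC3 and PMAIP1. The members, lists and tests were chosen with earlier results of these data known. Remarks on BAK1, BCL2L11 and single libraries were chosen after their values were seen.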

Additional observations from a re-analysis of the deposited data

Results flagged for a closer look

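The responses to RG7112 differed between the cell lines for 17 named genes, by edgeR's test of the difference itself over all 12 samples. Values are the log2 response of A549 minus that of H1792. Over all 11666 tested genes, 10.4% were called higher and 11.4% lower. Apart from the members, CDKN1A and MDM2, these genes were named because they were called in A549 or H1792. Their number is therefore not comparable with those shares. Among family members the difference was 2.64 for BCL2L1 (adjusted p = 0.0139), 2.61 for BBC3 (adjusted p = 0.000259) and 1.00 for BAX (adjusted p = 0.0130). Among p53 targets it was 3.40 for CDKN1A (adjusted p = 0.0450), a call that only 3 of the 12 fits without 1 library kept and that was lost with limma-trend (0.0503), scaling by library totals (0.0623), all genes kept at low counts (0.0758) and without both A549 samples numbered 3 (1.99, adjusted p = 0.0965). It was 3.12 for MDM2 (0.00604), 2.74 for TP53I3 (5.20e-06) and 2.60 for FDXR (0.00703). In the mitochondrial pathway, VDAC1 (-0.79, adjusted p = 0.00773), CYCS (-0.93, 0.0153) and BIRC2 (-1.06, 0.0235) had the more negative response in A549, as did BNIP2 (-1.91, 0.0122) of the wider list. The 14-3-3 genes YWHAE (-0.49, adjusted p = 0.0244) and YWHAZ (-1.32, 0.0109) lay on the same side, and BTRC on the other (4.03, 0.0206). The keratin genes KRT19 (1.93, adjusted p = 0.000460), KRT7 (1.21, 0.0149) and KRT8 (0.77, 0.0198) had the more positive response in A549. With the GC correction, 9 of the 17 kept their call. The 8 that lost it were BAX (0.29, adjusted p = 0.147), CDKN1A (2.69, 0.0911), BNIP2 (-1.07, 0.0513), CYCS (-0.35, 0.123), BIRC2 (-0.24, 0.612), YWHAE (-0.22, 0.282), KRT7 (0.56, 0.0646) and KRT8 (0.23, 0.190).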

How the results depend on the processing

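BBC3 and BCL2L1 kept their called rise in A549 under each of the alternative fits and without any single library. In H1792 the number of family members called was 1, and it moved to 2 with DESeq2, limma-trend, library size only, at least 10 counts in every sample, the replicate block and all 12 samples in one fit, and to 0 with the GC correction, alone, with length or with the block, with the fold threshold and with an adjusted p under 0.01. An adjusted p under 0.01 left 1 member differing in response between the lines. Leaving out 1 library gave 2 members in A549, 1 to 2 in H1792, 3 to 4 for the difference and 3 to 5 for DMSO.

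Same-numbered samples deviated together with r of 0.16, 0.07 and 0.32 in A549 and -0.05, -0.03 and -0.00 in H1792, and since not every pair exceeded 0.1 the numbers were not taken as a pairing. The A549 pair numbered 3 had the highest r, and A549 DMSO replicate 2 did not correlate best with its own number. With the replicate block, calls over all genes in H1792 went from 1752 higher and 1632 lower to 947 and 893, PMAIP1 was called there (adjusted p = 0.0463), CDKN1A was lost in A549 (0.0672) and in the difference (0.152), and 2 members were called in DMSO, where BAD (0.87, adjusted p = 0.0861), PMAIP1 (0.0969) and CDKN1A (2.18, 0.204) lost their calls.

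Sign changes concerned only genes that were not called. With the replicate block they were BAK1 in A549 (-0.28), MDM2 in H1792 (0.00857) and BCL2L1 in DMSO (-0.38), with limma-trend BAK1 in A549 (-0.78) and MDM2 in H1792 (0.0153), with library size only BAD (0.0476) and MDM2 (0.22) in H1792, with at least 10 counts MDM2 in H1792 (0.0280), and with 1 fit BID in H1792 (-0.0471). Library size only moved the median of all genes to 0.27 in H1792, -0.37 for the difference and 0.35 in DMSO. The GC correction turned PMAIP1 (0.0827) and BAD (-0.0177) in A549, BAD in H1792 (0.46), BAD in the difference (-0.42) and BCL2L1 in DMSO (-0.0202). With length these were 0.0955, -0.0202, 0.46 and -0.42 for PMAIP1 and BAD, and with the block 0.0491, -0.0328, 0.48 and -0.45, beside BAK1 in A549 (-0.42) and BCL2L1 in H1792 (0.13) and DMSO (-0.35). Without both A549 samples numbered 3, PMAIP1 was 0.34 and BCL2L11 in DMSO 0.0601.

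Over fits without 1 library, A549 responses ranged from -0.23 to 0.89 for BAK1, -1.01 to 1.92 for BCL2L11, -0.33 to 0.26 for PMAIP1 and -0.55 to 0.000507 for MCL1. In H1792 they ranged from -0.60 to 0.44 for BCL2L1, -0.10 to 0.10 for BID, -0.31 to 0.99 for CDKN1A and -0.33 to 0.23 for MDM2. In DMSO the ranges were -0.25 to 0.75 for BCL2L1, -2.20 to 0.0619 for BCL2L11, -0.25 to 1.16 for BAK1 and -0.76 to 0.0244 for MDM2, and the difference for BCL2L11 ranged from -0.51 to 2.41. The cause of these changes was not tested. With 3 samples a group, BCL2, BAK1 and BCL2L11 lie at the limit of what can be measured.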
